A study of Mus musculus with 9 samples.

Results

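DNA replication and S-phase genes were followed by RNA-seq in mouse embryonic stem cells that had lost the Hippo pathway effector TAZ or both YAP and TAZ. The 45 genes were chosen by name, for their roles in replication, from the 38940 genes of the deposited expression table. The rule uses names and no measured value, though the names were drawn up with earlier results of these data known. Each of the 45 had a mean of at least 1 FPKM (fragments per kilobase of gene, scaled by sequencing depth) over the 9 libraries and so entered the tests.

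The 9 libraries fell into 3 groups of 3. In Yap/Taz double KO cells (hereafter double KO) both Yap and Taz were deleted, according to the titles and descriptions. The genotype field of these libraries instead gives Yapfl/fl/Taz-/-, as it does for the Taz KO libraries, and the titles and descriptions were followed here. In Taz KO cells Taz was deleted and Yap was floxed, and control cells carried floxed alleles of both genes. All cells were grown on fibronectin in N2B27 medium with 2i/Lif, that is 4 ng/ml Lif, 0.4 µM of the MEK inhibitor PD0325901 and 3 µM of the GSK3 inhibitor CHIR99021. A Cre-ERT2 transgene on a CAG promoter was delivered with piggyBac, and recombination was induced with 500 nM 4-OHT. The labels do not say whether control cells received 4-OHT, whether a group was 1 clone, or whether the 3 libraries of a group came from separate cultures. The p-values therefore measure only a spread among libraries that could be technical.

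DNA replication is prepared in G1, when the origin recognition complex, CDC6 and CDT1 load the MCM2-7 helicase onto origins. In S phase the helicase is switched on by CDC45 and the GINS complex, and primase and the replicative polymerases copy the strands with the help of the sliding clamp PCNA, its loader RFC and the single-strand binding complex RPA. Many of these genes are transcribed from promoters bound by E2F factors, which are released from the retinoblastoma protein when cells enter S phase. Mouse embryonic stem cells cycle rapidly with a short G1. YAP and TAZ are co-activators of TEAD transcription factors.

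Promoter sequence was searched for the words of the E2F motif because it is the element these genes are best known to share. RefSeq windows of GRCm38.p6, 250 bases before to 50 bases after a start site, were found for 38 of the 45 genes. The words searched on either strand were TTCCCGC and TTCGCGC together with TTGCCGC and TTGGCGC. One of them was in a window of 24 of these 38 genes, or 63.2%. The same words were in 20.6% of the 8352 tested genes with a window and in 10.9% of the 27025 genes with a window. A CCAAT box (CCAAT, either strand) was in 60.5% of the 38 genes and in 43.9% of the tested genes with a window. The cell cycle homology word TTTGAA was in 10.5% of the 38 and 13.8% of the tested genes, and the TEAD word GGAATG in 10.5% and 14.1%. A match describes the letters of the window and says nothing of binding. The E2F words can overlap each other, as in TTGGCGCGAA, and can share bases with a CCAAT box.

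The 250 bases before the start site are printed for 5 genes, 5′ to 3′ on the strand of the gene, with E2F words in capitals. They were chosen to show several words in a gene whose level fell in double KO (Pola1, chrX:93632156-93632405, minus strand, and Mcm6, chr1:128359706-128359955, minus strand), a single word (Orc3, chr4:34614943-34615192, minus strand), words in a gene whose level did not pass the test (Mcm5, chr8:75109259-75109508, plus strand) and a gene whose level fell without a word (Rpa1, chr11:75348384-75348633, minus strand). These stretches hold 3, 4, 1, 3 and 0 words in that order.
Pola1: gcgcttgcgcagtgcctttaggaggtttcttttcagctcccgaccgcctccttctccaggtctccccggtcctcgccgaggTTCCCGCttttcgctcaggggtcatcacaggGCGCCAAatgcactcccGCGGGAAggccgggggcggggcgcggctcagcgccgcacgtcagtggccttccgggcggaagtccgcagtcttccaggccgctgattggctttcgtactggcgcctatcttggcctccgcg
Mcm6: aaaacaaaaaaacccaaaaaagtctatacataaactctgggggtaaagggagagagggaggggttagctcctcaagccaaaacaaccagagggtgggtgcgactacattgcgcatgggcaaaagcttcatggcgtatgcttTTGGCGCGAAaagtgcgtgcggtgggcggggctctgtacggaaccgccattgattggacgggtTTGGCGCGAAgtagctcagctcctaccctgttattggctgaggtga
Orc3: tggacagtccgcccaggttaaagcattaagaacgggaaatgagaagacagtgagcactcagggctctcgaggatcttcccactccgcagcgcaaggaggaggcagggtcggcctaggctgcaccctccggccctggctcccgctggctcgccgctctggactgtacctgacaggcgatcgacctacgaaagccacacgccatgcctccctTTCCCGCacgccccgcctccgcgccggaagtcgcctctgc
Mcm5: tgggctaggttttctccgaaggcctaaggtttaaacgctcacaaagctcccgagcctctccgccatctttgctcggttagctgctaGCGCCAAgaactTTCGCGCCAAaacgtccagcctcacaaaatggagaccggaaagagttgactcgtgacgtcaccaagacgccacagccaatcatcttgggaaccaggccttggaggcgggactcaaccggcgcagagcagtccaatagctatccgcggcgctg
Rpa1: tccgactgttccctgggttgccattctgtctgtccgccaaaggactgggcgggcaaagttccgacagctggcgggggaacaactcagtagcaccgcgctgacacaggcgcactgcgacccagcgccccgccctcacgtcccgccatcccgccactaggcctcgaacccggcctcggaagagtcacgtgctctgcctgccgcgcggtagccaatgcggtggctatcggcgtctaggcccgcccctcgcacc
Of the genes whose level fell in a double KO comparison described below, 9 of the 11 with a window held an E2F word. Of the genes with no call in either double KO comparison, 15 of 27 held one. Pola1 had a log2 fold change of -0.33 against control and 3 words in its printed stretch, and Rpa1 had -0.36 and none. A relation between the words and the falls was not tested.

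Each library had 19.1 to 24.0 M reads, recovered from the deposited values, and the 45 genes had 143 to 16089 reads each in a library. Markers of embryonic stem cells (Pou5f1, Sox2, Nanog, Esrrb, Zfp42, Klf4 and Tfcp2l1) lay between 61.1 and 479 FPKM in all 9 libraries, which fits the labelled cell type. Their summed level was 1263 to 1349 FPKM in double KO, 1439 to 1505 FPKM in Taz KO and 1469 to 1526 FPKM in control. The summed level of 5 fibroblast markers was 2.75 to 9.75 FPKM in double KO, 1.49 to 4.85 FPKM in Taz KO and 1.88 to 3.48 FPKM in control, most of it Thy1, with Postn at 0 in all 9 libraries. The trophectoderm list summed to 37.8 to 46.1 FPKM in double KO, 26.3 to 28.7 FPKM in Taz KO and 23.7 to 25.3 FPKM in control, nearly all from Tfap2c. The primitive endoderm list summed to at most 3.68 FPKM and the differentiating epiblast list to at most 16.5 FPKM in any library, and Zscan4c, of the 2-cell-like list, was at 0 in all 9. The part of these marker differences in the results was not tested. Yap1 had 4.14, 3.98 and 4.62 FPKM in double KO, 18.6, 17.9 and 18.5 FPKM in Taz KO and 18.1, 18.1 and 19.1 FPKM in control, so its level followed the titles and not the genotype field. Wwtr1, which encodes TAZ, had 14.7, 13.2 and 13.9 FPKM in double KO, 11.6, 9.03 and 11.9 FPKM in Taz KO and 12.4, 12.7 and 11.1 FPKM in control. The deleted exons are not given, so these values are no check on the loss of Taz.

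The replication genes were expressed at levels that spanned a wide range per length. Averaged over the 9 libraries, Mcm5 (179 FPKM), Mcm6 (172 FPKM) and Mcm3 (172 FPKM) were highest, followed by Mcm2 and Rrm2 (144 FPKM each), Pcna (131 FPKM) and Cdt1 (124 FPKM). The lowest were Orc4 (7.73 FPKM), Ccne2 (6.89 FPKM) and Fen1 (3.88 FPKM). The levels of Mcm5, Mcm6 and Mcm3 overlapped between libraries, as did those of Mcm2 and Rrm2.

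Many replication genes were modestly lower in double KO than in either other group, and none of the 45 changed by 2-fold or more in any comparison. Against control, 13 of the 45 fell and 0 rose by limma at a Benjamini-Hochberg adjusted p under 0.05. The 13 are 28.9% of the genes, beside 12.9% of all 11674 tested genes that fell and 12.4% that rose. The genes that fell were Orc3, Orc4, Mcm4, Mcm7, Gins2, Pola1, Pold1, Pole, Rpa1, Rfc1, Rfc2, Lig1 and Chaf1b, with 1.16 to 1.35-fold lower levels and adjusted p-values from limma of 0.00626 to 0.0489. The median log2 fold change was -0.24 over the 45 genes and -0.02 over all tested genes, and 39 of the 45 lay below 0 (34 with quantile normalization), as did 52.4% of all tested genes. At an unadjusted p under 0.05, 1 gene was higher and 23 were lower, beside 2232 and 2385 of all 11674 tested genes. Every double KO library lay below every control library for 23 of the 45 genes (23.8% of all tested genes) and above it for 1, Cdt1 (21.7% of all tested genes).

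Against Taz KO, 13 of the 45 genes also fell in double KO and 0 rose, or 28.9%, beside 7.45% of all tested genes that fell and 6.42% that rose. They were Orc3, Mcm4, Mcm6, Gins2, Pola1, Pola2, Pold1, Pole, Rpa1, Rfc1, Rfc2, Lig1 and Chaf1b, with 1.19 to 1.60-fold lower levels and adjusted p-values from limma of 0.0065 to 0.05. The median log2 fold change was -0.27 over the 45 genes and -0.04 over all tested genes. All 45 genes lay below 0, as did 55.6% of all tested genes, and with quantile normalization 41 of the 45 did. No gene was higher at an unadjusted p under 0.05 and 23 were lower, beside 1569 and 1983 of all 11674 tested genes. Every double KO library lay below every Taz KO library for 25 of the 45 genes (16.5% of all tested genes) and above it for 0 (14.1% of all tested genes). The comparisons with control and with Taz KO share the double KO libraries, so the 11 genes that fell in both and the 15 that fell in either are not separate evidence. In bulk RNA, fewer cells of a type, such as cells in S phase, and less RNA per cell cannot be told apart.

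**Figure D1:**
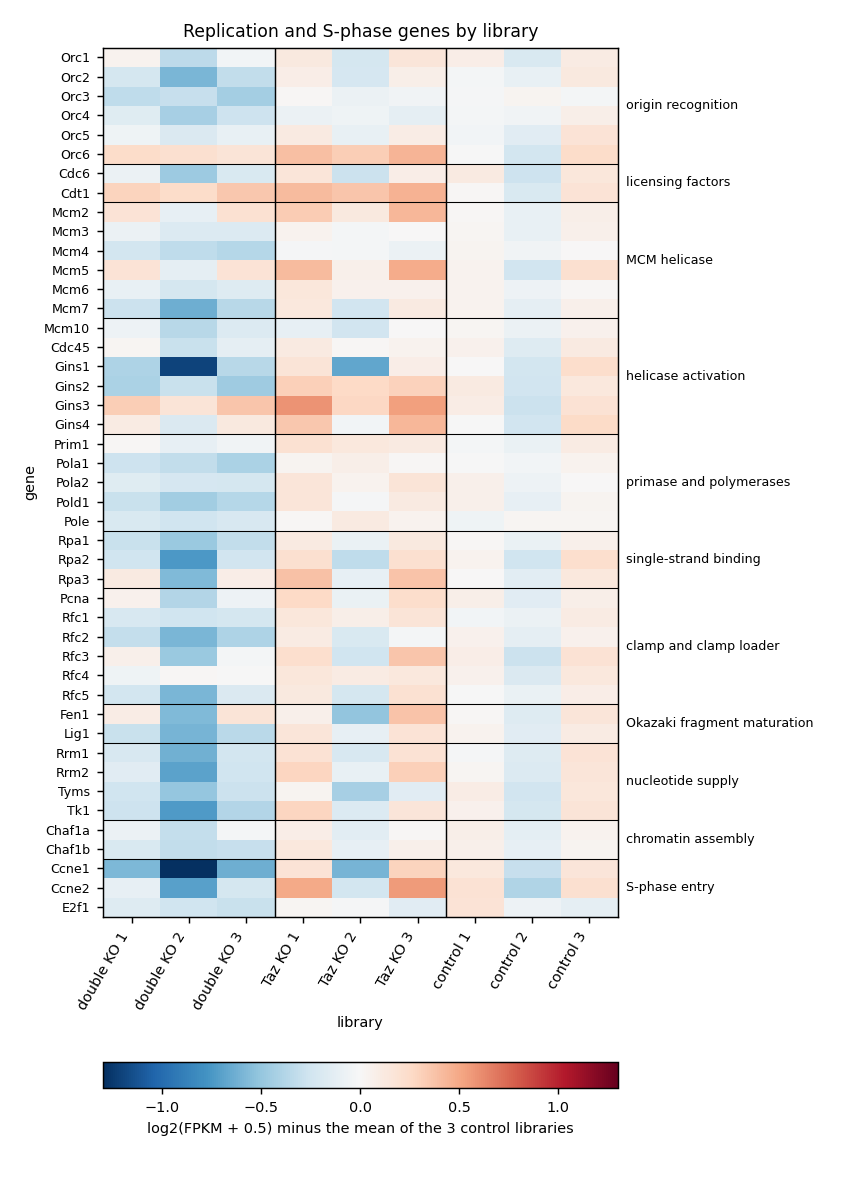
Level of each of the 45 genes (rows, grouped by role) in each of the 9 libraries (columns: double KO, Taz KO, control), as log2(FPKM + 0.5) minus the mean of the 3 control libraries; blue is lower and red is higher. Blue prevails in the double KO columns, most deeply in double KO 2, while Orc6, Cdt1, Gins3 and Mcm2 are red in most knockout columns.

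A further fit paired the libraries by their replicate number, a pairing the labels do not state. It was taken from the values, where same-numbered libraries mostly deviated together. Correlations were 0.192 to 0.711 in same-numbered pairs and -0.688 to 0.394 in the others, so the ranges overlapped. The pairing thus rests on the same values that the block fit tests. With the replicate number as a block in the limma fit, 30 of the 45 genes fell and 2 rose (Cdt1 and Gins3) in double KO against control, beside 28.1% and 24.2% of all tested genes. In the same fit 34 fell and 0 rose against Taz KO, beside 25.6% and 16.8% of all tested genes. The double KO library was the lower one in all 3 same-numbered pairs for 35 of the 45 genes against control (37.1% of all tested genes) and for 43 of the 45 against Taz KO (39.8% of all tested genes). The counts without the block depended on single libraries. Against control the 13 falls became 2, 8 and 4 when control replicate 1, 2 or 3 was left out. They became 8, 17 and 8 without Taz KO replicate 1, 2 or 3. Without double KO replicate 1, 2 or 3 they became 8, 7 and 5. Against Taz KO the 13 falls became 8, 10 and 9 without control replicate 1, 2 or 3. They became 2, 22 and 3 without Taz KO replicate 1, 2 or 3, and 6, 8 and 3 without those of double KO. Falls over all tested genes varied as well in these fits, from 725 to 1891 against control and from 237 to 1552 against Taz KO. Of the 13 calls in each comparison, 2 held in all 9 of these fits. Against control the calls for Mcm7, Pole, Rfc1 and Chaf1b held in 1 of 9 and that for Orc4 in 2. Against Taz KO the calls for Mcm6, Rfc2 and Chaf1b held in 1 of 9 and that for Mcm4 in 2. With quantile normalization of the log2 values, 4 genes rose (Orc6, Cdt1, Mcm2 and Mcm5) and 13 fell against control, where 14% and 13.8% of all tested genes did. Against Taz KO it gave 0 rises and 13 falls, beside 7.4% and 7.69% of all tested genes. By voom on the recovered reads 1 gene rose (Cdt1) and 16 fell against control, beside 14.3% and 13.5% of all tested genes, and 0 rose and 16 fell against Taz KO, beside 8.05% and 6.54%.

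**Figure D2:**
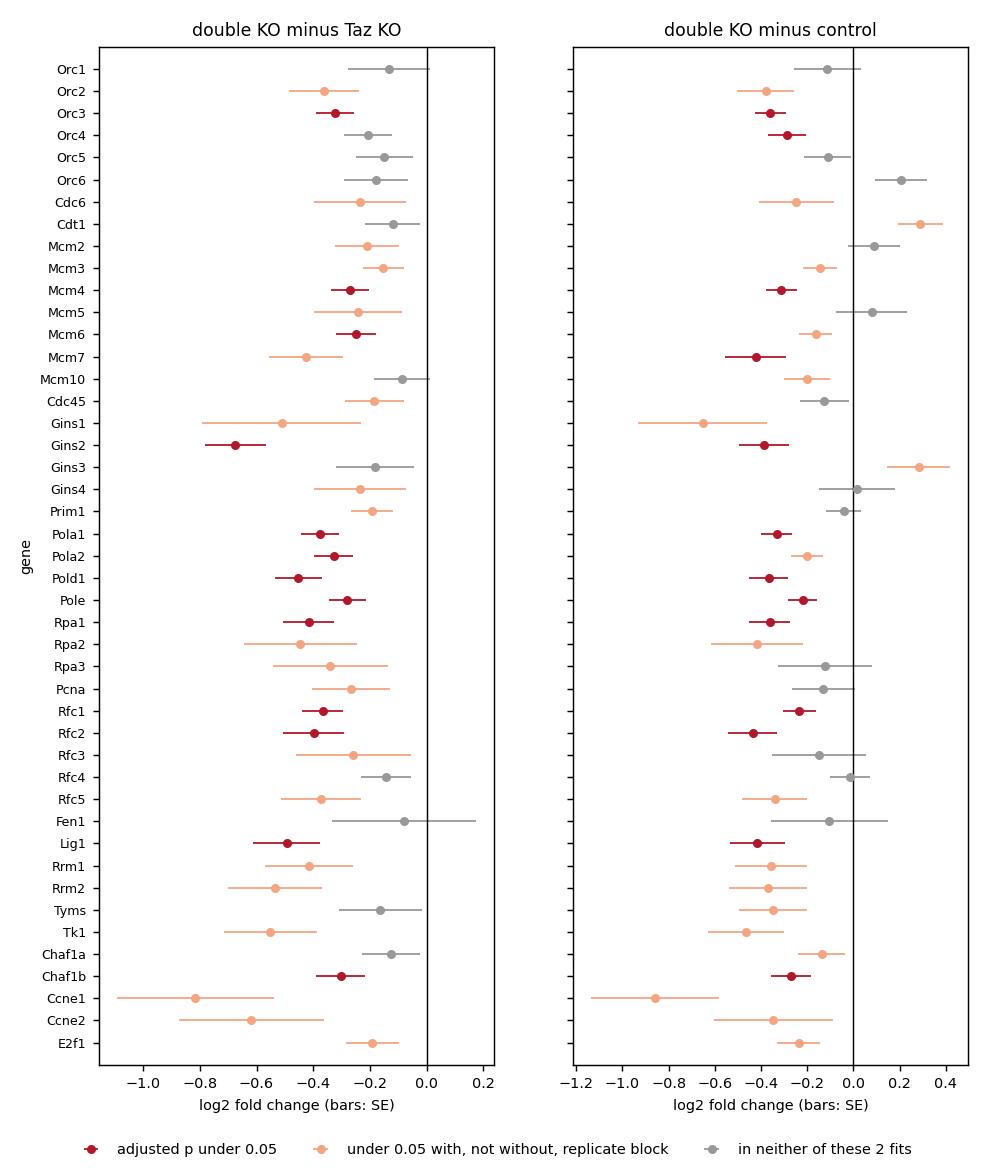
Log2 fold change of each of the 45 genes in double KO against Taz KO (left) and against control (right), on the log2(FPKM + 0.5) scale; points are estimates from limma and bars are their standard errors. Red points passed an adjusted p of 0.05, orange points passed it with the replicate block and not without it, and grey points passed in neither of these fits; all points lie left of 0 in the left panel and 39 of 45 do in the right panel.

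Among the 6 origin recognition genes, which encode the complex that marks origins, Orc3 and Orc4 fell against control and Orc3 fell against Taz KO. Orc3 had 12.3, 12.6 and 11.3 FPKM in double KO, 15.8, 14.8 and 15.1 FPKM in Taz KO and 15.5, 16.0 and 15.3 FPKM in control. All 3 double KO libraries lay below the other 6. The log2 fold change was -0.36 against control (SE 0.07, adjusted p from limma = 0.00626) and -0.32 against Taz KO (SE 0.07, adjusted p from limma = 0.0178). Against control the call for Orc3 held in all 9 fits that left out 1 library, and against Taz KO it held in 5 of 9. Orc4 averaged 6.83 ± 0.694 FPKM in double KO, 7.94 ± 0.176 FPKM in Taz KO and 8.43 ± 0.395 FPKM in control (SD, n = 3 each). Orc2, at 21.3 ± 2.77 FPKM in double KO and 27.8 ± 2.31 FPKM in control (SD, n = 3 each), missed the threshold against control (adjusted p from limma = 0.0525) and passed it with the block (0.0018), by voom (0.0291) and with quantile normalization (0.0191). Against Taz KO its adjusted p from limma was 0.0845, 0.00345 with the block, 0.0629 by voom and 0.0469 with quantile normalization. Orc2 overlaps Nif3l1 on the opposite strand. Orc1, the largest subunit, and Orc5 had log2 fold changes of -0.11 each against control and did not pass with or without the block. Orc6 lay above 0 against control, at 0.21, and below 0 against Taz KO, at -0.18, without a call. It lies on chromosome 8, where all tested genes had a median of 0.30 in double KO against control. Orc6 shares 171 bases with Vps35 (164 FPKM) on the opposite strand.

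The licensing factors CDC6 and CDT1, which bring the MCM helicase to the origin, did not pass the limma test in either double KO comparison, and their log2 fold changes against control had opposite signs. Cdt1 had 127, 123 and 133 FPKM in double KO, 140, 134 and 143 FPKM in Taz KO and 106, 91.1 and 118 FPKM in control. Both knockout groups lay above control in every library. Cdt1 lies on chromosome 8, where all tested genes had a median log2 fold change of 0.30 in double KO and 0.35 in Taz KO against control. Against control the log2 fold change in double KO was 0.29 (SE 0.10, adjusted p from limma = 0.0607), and the fit with the block gave 0.00524 and voom on the recovered reads gave 0.0242. Cdc6 had 13.8, 10.3 and 12.6 FPKM in double KO, 16.3, 11.8 and 15.4 FPKM in Taz KO and 15.8, 11.96 and 16.2 FPKM in control. Its groups overlapped, and its adjusted p from limma of 0.29 against control became 0.00509 with the block, where each number's double KO library was the lowest of the 3. Against Taz KO it was 0.365, and 0.00885 with the block.

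Of the 6 genes of the MCM2-7 helicase ring, which unwinds the parental strands, 2 passed the test in each double KO comparison. All 6 lay below 0 against Taz KO and 4 did against control, and differences among the 6 were not tested. Mcm4 and Mcm7 fell against control, and Mcm4 and Mcm6 fell against Taz KO. Mcm4 (chromosome 16, 15623897 to 15637400 on GRCm38) had 93.2, 87.6 and 85.0 FPKM in double KO, 109, 108 and 104 FPKM in Taz KO and 113, 107 and 111 FPKM in control. No double KO library reached the lowest of the other 6. The log2 fold change was -0.31 against control (SE 0.07, adjusted p from limma = 0.0113) and -0.27 against Taz KO (SE 0.07, adjusted p = 0.0315). With quantile normalization the same log2 fold changes were -0.11 (adjusted p from limma = 0.383) and -0.09 (adjusted p from limma = 0.541). Mcm7 (chromosome 5, 138164583 to 138172422) had 86.6, 67.3 and 81.8 FPKM in double KO, 115, 88.6 and 114 FPKM in Taz KO and 109, 96.8 and 110 FPKM in control. Its log2 fold change was -0.42 against control (SE 0.13, adjusted p from limma = 0.0444) and -0.43 against Taz KO (adjusted p from limma = 0.0637, 0.00105 with the block, 0.0424 by voom and 0.0274 with quantile normalization). Mcm6 had 163, 149 and 155 FPKM in double KO, 194, 181 and 181 FPKM in Taz KO and 180, 167 and 177 FPKM in control, with an adjusted p from limma of 0.05 against Taz KO that sat just under the threshold. With quantile normalization its log2 fold change against Taz KO was -0.03 (adjusted p from limma = 0.788).

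Mcm2, Mcm3 and Mcm5 passed the test in neither double KO comparison. Mcm2 averaged 140 ± 15.5 FPKM in double KO, 162 ± 17.4 FPKM in Taz KO and 131 ± 7.71 FPKM in control (SD, n = 3 each). Mcm5 averaged 171 ± 19.7 FPKM in double KO, 203 ± 29.7 FPKM in Taz KO and 163 ± 25.9 FPKM in control (SD, n = 3 each). Both lay above control and below Taz KO in double KO, with log2 fold changes of 0.09 and 0.08 against control. Mcm2 lies on chromosome 6 and Mcm5 on chromosome 8. All tested genes of these chromosomes had medians of 0.19 and 0.30 in double KO against control. Summed over the 6 genes, the level was 841, 730 and 811 FPKM in double KO, 981, 863 and 978 FPKM in Taz KO and 879, 793 and 908 FPKM in control. The double KO sums lay below the Taz KO sums and overlapped the control sums. With the block all 6 MCM genes fell against Taz KO and 4 of 6 fell against control (Mcm3, Mcm4, Mcm6 and Mcm7), but quantile normalization without the block turned the sign of several. Against control it gave Mcm3 a log2 fold change of 0.09 and Mcm6 one of 0.07. Against Taz KO it gave 0.07 for Mcm3, 0.0036 for Mcm2 and -0.01 for Mcm5. Mcm7 shares 64 bases with Cops6 and 421 with Ap4m1, both on the opposite strand. The strand setting of the counting is not given, so part of the Mcm7 reads could belong to these genes.

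Of the 6 genes that turn the loaded helicase on, Gins2 fell in both double KO comparisons and the other 5 did not pass. Gins2 encodes a subunit of GINS, the tetramer that joins CDC45 and MCM2-7 into the active helicase. It had 9.96, 10.9 and 9.57 FPKM in double KO, 16.7, 16.1 and 16.6 FPKM in Taz KO and 14.6, 11.2 and 14.7 FPKM in control. The highest double KO library was below the lowest library of each other group, though control 2 came close to double KO 2. The log2 fold change was -0.67 against Taz KO (SE 0.11, adjusted p from limma = 0.0065, called in all 9 fits without 1 library) and -0.39 against control (SE 0.11, adjusted p from limma = 0.0297, called in 5 of 9). Gins2 overlaps Gse1 on the opposite strand.

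Gins1 had 22.0, 12.4 and 22.6 FPKM in double KO, 32.7, 18.0 and 31.0 FPKM in Taz KO and 29.2, 24.7 and 34.3 FPKM in control. Replicate 2 was the lowest of its group in all 3 groups, and Gins1 did not pass against control (log2 fold change -0.65, SE 0.28, adjusted p from limma = 0.117, and 0.00178 with the block) or against Taz KO (-0.51, adjusted p from limma = 0.257, and 0.00767 with the block). Gins3 averaged 10.2 ± 0.757 FPKM in double KO, 11.7 ± 1.39 FPKM in Taz KO and 8.37 ± 1.46 FPKM in control (SD, n = 3 each), with a log2 fold change of 0.28 in double KO against control (adjusted p from limma = 0.159, and 0.00851 with the block). The genes of this complex therefore lay on both sides of 0 against control, and all 4 below 0 against Taz KO. Gins2, Gins3 and Gins4 lie on chromosome 8, where all tested genes had a median of 0.30 in double KO against control. Gins4 had log2 fold changes of 0.02 against control and -0.24 against Taz KO, where it passed with the block (0.0132). Cdc45 and Mcm10, a factor of helicase activation, had log2 fold changes of -0.13 and -0.20 against control without a call. With the block Mcm10 passed against control (0.0193) and Cdc45 against Taz KO (0.0492).

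**Figure D3:**
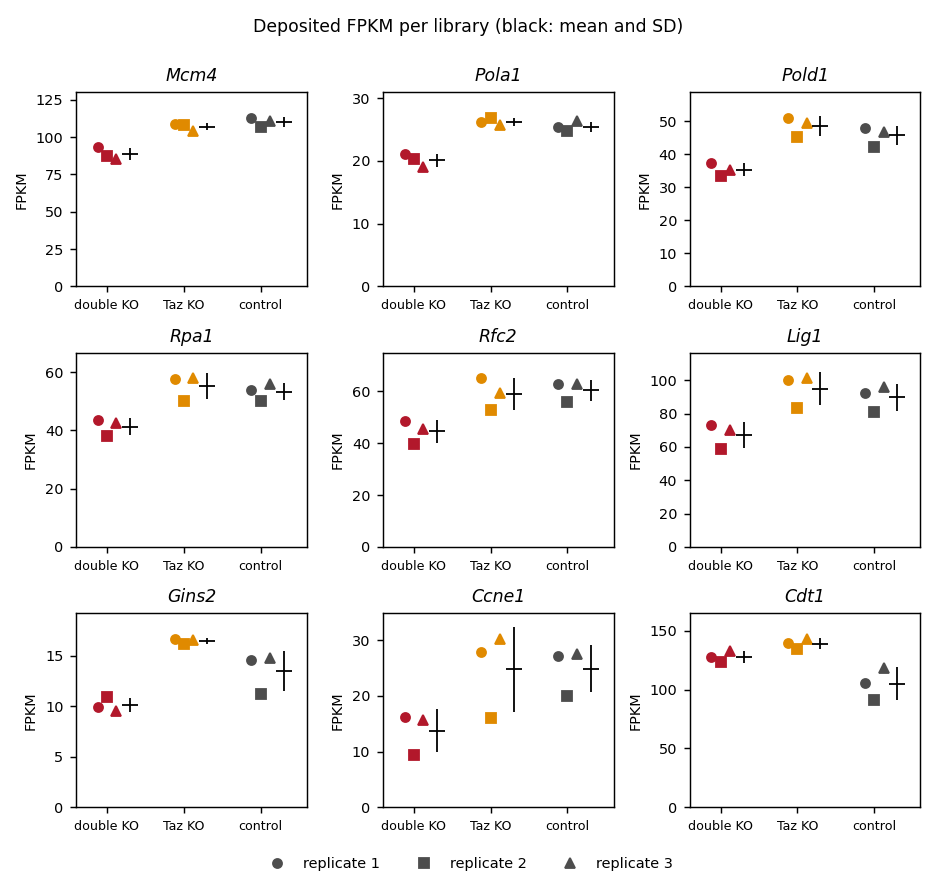
FPKM of Mcm4, Pola1, Pold1, Rpa1, Rfc2, Lig1, Gins2, Ccne1 and Cdt1 in each library of double KO (red), Taz KO (orange) and control (grey); symbols mark the replicate number and black marks the mean and SD of 3 libraries. In the first 7 panels every double KO library lies below every other library, in the Ccne1 panel double KO lies below control and overlaps Taz KO, and in the Cdt1 panel both knockout groups lie above control.

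Most of the primase and polymerase genes were called without the block. Against control 3 of 5 fell (Pola1, Pold1 and Pole), and against Taz KO 4 of 5 did, with Pola2 added. Pola1, the catalytic subunit of polymerase alpha that extends the RNA primer (chromosome X, 93304767 to 93632155), had 21.1, 20.3 and 19.0 FPKM in double KO, 26.2, 26.9 and 25.7 FPKM in Taz KO and 25.3, 24.8 and 26.3 FPKM in control. The double KO libraries lay below the other 6. Its log2 fold change was -0.33 against control (SE 0.07, adjusted p from limma = 0.00839) and -0.38 against Taz KO (SE 0.07, adjusted p = 0.01), and both calls held in all 9 fits without 1 library. Pold1, the catalytic subunit of the lagging-strand polymerase delta (chromosome 7, 44532746 to 44548849), had 37.4, 33.3 and 35.3 FPKM in double KO, 51.1, 45.1 and 49.4 FPKM in Taz KO and 47.9, 42.3 and 46.9 FPKM in control. It was at 77.3% of control and 72.8% of Taz KO, with adjusted p-values from limma of 0.0137 and 0.0113 that each held in 8 of 9 fits without 1 library.

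Pole, the catalytic subunit of the leading-strand polymerase epsilon, averaged 15.8 ± 0.379 FPKM in double KO, 19.3 ± 0.764 FPKM in Taz KO and 18.5 ± 0.618 FPKM in control (SD, n = 3 each). It was at 85.4% of control (adjusted p from limma = 0.0367). Pola2, the second subunit of polymerase alpha, averaged 34.5 ± 0.889 FPKM in double KO, 43.5 ± 1.96 FPKM in Taz KO and 39.8 ± 1.84 FPKM in control (SD, n = 3 each). It fell against Taz KO (log2 fold change -0.33, adjusted p from limma = 0.0181), and against control it passed with the block (0.0073) and not without it (0.0612). Prim1, the primase subunit that makes the RNA primer, had 25.5, 23.4 and 24.3 FPKM in double KO, 28.8, 27.7 and 27.3 FPKM in Taz KO and 24.6, 23.7 and 27.2 FPKM in control. It overlapped control, with a log2 fold change of -0.04, and lay below Taz KO in every library (-0.19, adjusted p from limma = 0.119, and 0.0285 with the block). With quantile normalization Pole missed the threshold in both comparisons (adjusted p from limma = 0.108 against control and 0.0735 against Taz KO), and Pola2 missed it against Taz KO (0.0516).

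Of the 3 RPA genes, which encode the complex that coats single-stranded DNA, Rpa1 fell in both double KO comparisons. Rpa1 (chromosome 11, 75298166 to 75348324) had 43.4, 37.9 and 42.7 FPKM in double KO, 57.8, 50.2 and 58.0 FPKM in Taz KO and 53.7, 50.2 and 55.8 FPKM in control. The highest double KO library lay below the lowest of the others. The log2 fold change was -0.36 against control and -0.42 against Taz KO (SE 0.09 each, adjusted p from limma = 0.0191 for both). Rpa2 had 34.3, 24.2 and 34.4 FPKM in double KO, 47.5, 32.5 and 47.5 FPKM in Taz KO and 42.2, 34.1 and 47.8 FPKM in control. Its log2 fold changes of -0.42 and -0.45 were at least as large as those of Rpa1, but its groups overlapped through the libraries numbered 2 and it passed with the block and not without it (0.000694 against control and 0.00102 against Taz KO). Rpa3 averaged 29.7 ± 7.46 FPKM in double KO, 37.2 ± 6.8 FPKM in Taz KO and 31.7 ± 3.05 FPKM in control (SD, n = 3 each) and passed only against Taz KO with the block (0.0213).

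The clamp loader RFC opens PCNA and places it around DNA. Of its 5 genes, Rfc1 and Rfc2 fell in both double KO comparisons, and Pcna passed in neither. Rfc2 had 48.6, 39.8 and 45.5 FPKM in double KO, 65.1, 52.7 and 59.2 FPKM in Taz KO and 62.8, 55.8 and 62.8 FPKM in control. The double KO libraries lay below the rest, with log2 fold changes of -0.44 against control (SE 0.11, adjusted p from limma = 0.0188) and -0.40 against Taz KO (SE 0.11, adjusted p from limma = 0.0403). Rfc1, the large subunit, averaged 34.5 ± 0.6 FPKM in double KO, 44.7 ± 1.58 FPKM in Taz KO and 40.8 ± 2.73 FPKM in control (SD, n = 3 each), and its adjusted p from limma against control was 0.0414, and 0.147 with quantile normalization. Rfc5 had log2 fold changes of -0.34 and -0.37 and passed both comparisons with the block (0.00347 and 0.0035). Rfc3 passed only against Taz KO with the block (0.0124). Of the 5 loader genes Rfc4 differed least, at 24.4 ± 0.626 FPKM in double KO, 27.0 ± 0.362 FPKM in Taz KO and 24.8 ± 2.85 FPKM in control (SD, n = 3 each). Rfc4 overlaps Eif4a2, a gene expressed at 147 FPKM on the opposite strand.

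Pcna, the sliding clamp that tethers the polymerases, had 135, 99.8 and 124 FPKM in double KO, 155, 123 and 152 FPKM in Taz KO and 137, 117 and 137 FPKM in control. The groups overlapped in both comparisons, with log2 fold changes of -0.13 against control and -0.27 against Taz KO (adjusted p from limma = 0.515 and 0.229, and 0.0587 and 0.00466 with the block). A pseudogene named Pcna-ps2 had 0.319 FPKM on average, so few reads were assigned to it.

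Lig1 encodes the ligase that joins Okazaki fragments on the lagging strand, and Fen1 the nuclease that trims their flaps. Lig1 had 73.5, 58.7 and 70.0 FPKM in double KO, 100, 83.4 and 101 FPKM in Taz KO and 92.5, 80.9 and 96.2 FPKM in control. Every double KO library lay below every other, with log2 fold changes of -0.42 against control (SE 0.12, adjusted p from limma = 0.0331) and -0.49 against Taz KO (SE 0.12, adjusted p from limma = 0.0283). Fen1 averaged 3.72 ± 1.09 FPKM in double KO, 3.98 ± 1.31 FPKM in Taz KO and 3.94 ± 0.498 FPKM in control (SD, n = 3 each) and passed nothing, with or without the block. The standard error of its log2 fold change was 0.25, beside 0.12 for Lig1, and it overlaps Tmem258 on the opposite strand.

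The 4 genes of nucleotide supply all lay below 0 in double KO and none passed by limma without the block, where 3 were lower at an unadjusted p under 0.05 in each comparison. By voom 1 passed against control and 2 against Taz KO. Rrm2, the limiting subunit of ribonucleotide reductase in S phase, had 133, 91.2 and 123 FPKM in double KO, 179, 138 and 183 FPKM in Taz KO and 150, 130 and 165 FPKM in control. The double KO libraries lay below all Taz KO libraries, and double KO 1 overlapped control 2. The log2 fold change was -0.53 against Taz KO (SE 0.17, adjusted p from limma = 0.0667, 0.000837 with the block, 0.0466 by voom and 0.0376 with quantile normalization) and -0.37 against control (SE 0.17, adjusted p = 0.136, and 0.00221 with the block). Rrm1, the large subunit, averaged 53.4 ± 8.21 FPKM in double KO, 71.3 ± 10.8 FPKM in Taz KO and 68.3 ± 8.41 FPKM in control (SD, n = 3 each), and passed both comparisons with the block and not without it (0.00187 against control and 0.00168 against Taz KO). Tk1, the thymidine kinase of S phase, averaged 13.0 ± 2.20 FPKM in double KO, 19.3 ± 3.13 FPKM in Taz KO and 18.1 ± 2.56 FPKM in control (SD, n = 3 each), at 72% of control and 67.5% of Taz KO. Its adjusted p from limma was 0.0695 against control (0.000583 with the block, 0.0456 by voom and 0.0416 with quantile normalization) and 0.0576 against Taz KO (0.000624, 0.0424 and 0.0397 in the same order). Tyms, the thymidylate synthase, had log2 fold changes of -0.35 against control and -0.16 against Taz KO, and passed with the block against control only (0.00246), a contrast between comparisons that was not tested.

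Chaf1b and Chaf1a encode subunits of the chromatin assembly factor that places histones behind the fork. Chaf1b averaged 21.1 ± 0.973 FPKM in double KO, 26.2 ± 2.26 FPKM in Taz KO and 25.6 ± 1.64 FPKM in control (SD, n = 3 each). It fell in both comparisons, at 82.4% of control and 80.6% of Taz KO, with adjusted p-values from limma of 0.0489 and 0.0499 that each held in 1 of 9 fits without 1 library. Chaf1a had log2 fold changes of -0.14 and -0.12 and passed only against control with the block (0.0399).

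The largest log2 fold changes by size among the 45 belonged to Ccne1, which encodes a cyclin E, the CDK2 partner that drives S-phase entry. Ccne1 (chromosome 7, 38097984 to 38107534) had 16.3, 9.32 and 15.6 FPKM in double KO, 27.9, 16.1 and 30.3 FPKM in Taz KO and 27.2, 19.97 and 27.4 FPKM in control. Double KO lay below control in every library and overlapped Taz KO through Taz KO 2. It was at 55.3% of control and 55.5% of Taz KO. The log2 fold change of -0.86 against control (SE 0.28) had an adjusted p from limma of 0.0516, and passed with the block (0.000185), by voom (0.0368) and with quantile normalization (0.0363). Against Taz KO it was -0.82 (SE 0.28, adjusted p from limma = 0.0843, 0.000575 with the block, 0.071 by voom and 0.0711 with quantile normalization). Ccne2 had 6.24, 3.93 and 5.69 FPKM in double KO, 9.72, 5.66 and 10.1 FPKM in Taz KO and 7.75, 5.02 and 7.84 FPKM in control, and passed in both comparisons with the block and not without it (0.00414 and 0.00067). Ccne2 overlaps Ints8 on the opposite strand. E2f1, an activating E2F factor, averaged 18.1 ± 0.783 FPKM in double KO, 20.8 ± 1.36 FPKM in Taz KO and 21.5 ± 2.47 FPKM in control (SD, n = 3 each), below both groups in every library, and passed with the block and not without it (0.00838 and 0.0262).

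In the comparison of Taz KO with control, where the labelled genotypes differ in Taz and not in Yap, the replication genes differed little. By limma 0 of the 45 rose and 0 fell, beside 0.72% and 0.565% of all tested genes. At an unadjusted p under 0.05, 5 were higher and 0 were lower, beside 937 and 561 of all 11674 tested genes. Voom also called 0 in either direction, beside 0.925% and 0.694% of all tested genes. The median log2 fold change was 0.06 over the 45 genes and 0.01 over all tested genes, and 13 of the 45 lay below 0, as did 48.5% of all tested genes. Every Taz KO library lay above every control library for 7 of the 45 genes (10.9% of all tested genes) and below it for 1 (7.84% of all tested genes). With the block 7 rose and 0 fell, beside 7.78% and 4.05% of all tested genes. They were Orc6, Cdt1, Mcm2, Mcm5, Gins3, Gins4 and Ccne2, by 1.19 to 1.38-fold. Quantile normalization gave 2 rises (Cdt1 and Mcm2) and 0 falls, beside 1.11% and 0.72% of all tested genes.

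Of the 7 genes that rose with the block, 5 lie on chromosome 8 (Orc6, Cdt1, Mcm5, Gins3 and Gins4) and Mcm2 lies on chromosome 6. Tested genes of these chromosomes had medians above 0 in both knockout groups. In Taz KO against control the median log2 fold change was 0.35 over the 6 replication genes of chromosome 8, beside 0.35 over all 636 tested genes placed there. It was 0.26 over the 2 of chromosome 6 (Mcm2 and Rpa3), beside 0.21 over 495 tested genes, and 0.03 over the 37 replication genes elsewhere, beside -0.01 over 9528 tested genes outside chromosomes 6, 8, 14 and Y. In double KO against control the 6 genes of chromosome 8 had a median of 0.14, beside 0.30 for the chromosome. The 37 genes elsewhere all lay below 0 with a median of -0.29, beside -0.05 for the 9528 tested genes, and 12 of the 37 fell, or 32.4%, beside 14.2%. With quantile normalization Mcm3, Mcm6, Pcna, Rfc4 and Prim1 of the 37 lay above 0, at 0.04 to 0.09. In double KO against Taz KO the median was -0.21 over the 6 genes of chromosome 8 and -0.30 over the 37, beside -0.04 for the tested genes of each. In double KO, loss of Yap and Taz and any other difference from control, such as the one over whole chromosomes, cannot be told apart. The same holds for loss of Taz in Taz KO. When the genes of chromosomes 6, 8, 14 and Y were left out of the fit, 12 of the 37 fell in each double KO comparison.

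**Figure D4:**
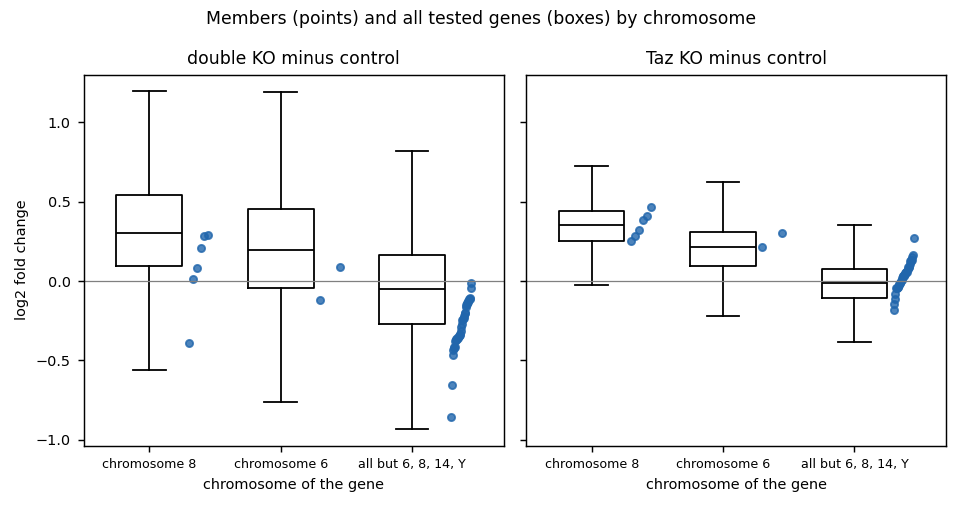
Log2 fold change against control in double KO (left) and Taz KO (right) of the 45 genes (points) and of all tested genes (boxes: quartiles and median; whiskers: the farthest gene within 1.5 times the box) by chromosome. The 6 points of chromosome 8 lie around the raised box in Taz KO (median 0.35 for both). In double KO each of the 6 lies below the median of the box (medians 0.14 and 0.30). The 37 points elsewhere all lie below 0 in double KO, 5 of which lie above 0 with quantile normalization (not drawn).

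Replication genes also shared a difference within the groups. The library numbered 2 was the lowest of its group for 37 of the 45 genes in double KO, 39 in Taz KO and 42 in control, beside 53.0%, 49.3% and 44.8% of all tested genes. In log2 it lay below the mean of libraries 1 and 3 by a median of -0.24 in double KO, -0.23 in Taz KO and -0.22 in control, beside -0.07, -0.05 and -0.03 over all tested genes. The lowest values of this difference were -0.82 for Gins1 in double KO, -0.84 for Ccne1 in Taz KO and -0.59 for Ccne2 in control. These differences within groups were about as large as those between double KO and the other groups, and what the number marks is not given in the labels. Without the 3 libraries numbered 2, a setting chosen after seeing the data, 27 of the 45 genes fell and 2 rose in double KO against control, beside 22.5% and 19.4% of all tested genes. In the same setting 30 fell and 0 rose in double KO against Taz KO, beside 22.1% and 14.5% of all tested genes, and all 13 falls of each comparison stayed called. In Taz KO against control 3 rose (Cdt1, Gins3 and Mcm2) and 0 fell, beside 2.42% and 1.2% of all tested genes.

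**Figure D5:**
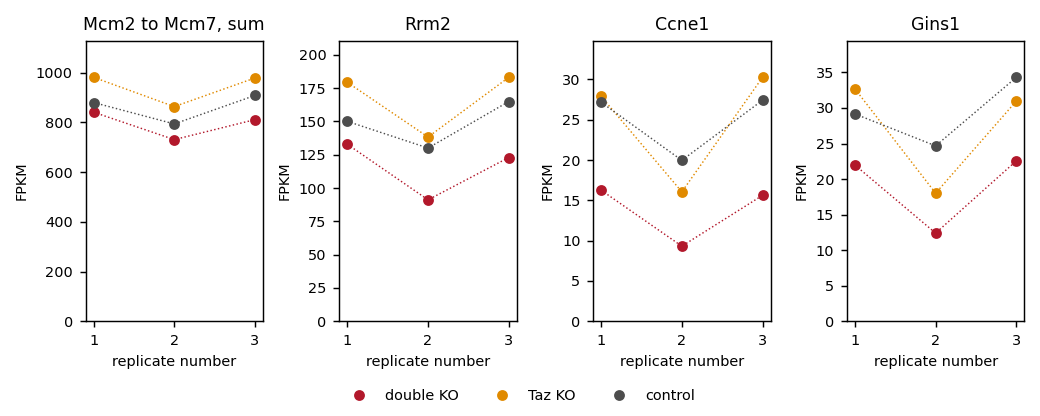
FPKM by replicate number for the sum of Mcm2 to Mcm7 and for Rrm2, Ccne1 and Gins1 in double KO (red), Taz KO (orange) and control (grey); dotted lines join libraries of a group only to guide the eye. Number 2 is the lowest point of each group in all 4 panels, and the double KO point is the lowest at each number.

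A wider list of 66 other replication and S-phase genes was counted beside the 45. Against control, 3 rose and 9 fell in double KO, so 13.6% fell, near the 12.9% of all tested genes. Of the 66, 3 were higher and 17 were lower at an unadjusted p under 0.05, beside 2232 and 2385 of all 11674 tested genes. The log2 fold change lay below 0 for 54 of the 66, as it did for 52.4% of all tested genes. Pold2, a subunit of polymerase delta, averaged 38.0 ± 2.24 FPKM in double KO, 67.2 ± 4.57 FPKM in Taz KO and 64.5 ± 2.19 FPKM in control (SD, n = 3 each). Its log2 fold change of -0.76 against control (adjusted p from limma = 0.000495) and -0.81 against Taz KO (adjusted p from limma = 0.000959) was the largest fall by size among the genes of this list called in each comparison, and both calls held in all 9 fits without 1 library. The other falls against control of largest size were the CDT1 inhibitor geminin Gmnn (-0.66), the RNase H2 subunit Rnaseh2c (-0.63), the clamp loader variant Chtf18 (-0.53) and the histone chaperone Rbbp4 (-0.45). The 3 rises were the fork protein Donson (0.43), the pocket protein Rbl2 (0.41) and Chtf8 (0.30), of which Rbl2 and Chtf8 lie on chromosome 8.

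Against Taz KO, 5 of the 66 fell in double KO, or 7.58%, near the 7.45% of all tested genes. By limma 0 rose, and 1 rose by voom. Of the 66, 1 was higher and 24 were lower at an unadjusted p under 0.05, beside 1569 and 1983 of all 11674 tested genes. The log2 fold change lay below 0 for 61 of the 66, as it did for 55.6% of all tested genes. The 5 that fell were Pold2, Chtf18 (-0.45), the S-phase cyclin Ccna2 (-0.44), Rbbp4 (-0.41) and the checkpoint clamp subunit Hus1 (-0.31). In Taz KO against control Chtf8 alone rose (0.40, adjusted p from limma = 0.0358). The median log2 fold change over the 66 was -0.13 in double KO against control, -0.23 against Taz KO and 0.05 in Taz KO against control. With the block 28 of the 66 fell and 3 rose in double KO against control, where 28.1% and 24.2% of all tested genes did. In the same fit 42 fell and 1 rose against Taz KO, where 25.6% and 16.8% of all tested genes did, and 8 rose in Taz KO against control, where 7.78% did.

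Mitotic genes were counted as well. Of 20, 6 fell and 0 rose in double KO against control (0 at an unadjusted p under 0.05 and 0 by voom), and 4 fell and 0 rose against Taz KO (0 and 0 likewise), beside 12.9% and 7.45% of all tested genes that fell. Those of largest size against control were the mitotic cyclin Ccnb2 (-0.57), the kinase Aurka (-0.57), the ubiquitin-conjugating enzyme Ube2c (-0.54), the checkpoint kinase Bub1b (-0.48) and the topoisomerase Top2a (-0.30). Against Taz KO they were Ccnb2 (-0.64), Bub1b (-0.43), the spindle protein Nusap1 (-0.31) and Bub1 (-0.30). The median log2 fold change over the 20 was -0.28 against control and -0.31 against Taz KO, beside -0.24 and -0.27 over the 45 replication genes, so the lower values were not confined to replication genes. In Taz KO against control 0 of 20 rose or fell by limma and by voom (1 higher and 0 lower at an unadjusted p under 0.05). With the block 16 of 20 fell in each double KO comparison, beside 28.1% of all tested genes against control and 25.6% against Taz KO. In that fit 1 mitotic gene rose against control, Cenpe, a kinetochore motor named here after its values were seen, and 0 rose against Taz KO.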

How the data were processed

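Poly(A) RNA-seq libraries were made with a directional kit and sequenced for 75 cycles, per the labels' protocols. The authors deposited FPKM values per gene and library; TopHat2 2.1.1, HTSeq 0.6.1, DESeq2 and mm10 appear in the submitters' processing notes, with no role given. The annotation release and the strand setting of the counting are not stated there, and 11 of the 45 genes overlap another tested gene. Among them, Orc2 shares 19046 bases with Nif3l1 (10.7 FPKM) and Ccne2 shares 5622 with Ints8 (10.4 FPKM). Chaf1a shares 5245 with Ubxn6 (5.99 FPKM). These lie on the opposite strand, and the bases count whole gene spans with introns. Deposited FPKM values of a gene were multiples of the value of 1 read for 24621 of 24621 genes above 0 (tolerance 0.001), which gave the reads behind each value. These are the smallest whole numbers that match, so true reads could be a multiple of them.

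The 11674 genes that averaged 1 FPKM or more were tested on log2(FPKM + 0.5) with limma 3.58.1 in R 4.3.3, as a fit of group means to all 9 libraries with a variance trend, two-sided, with Benjamini-Hochberg adjustment over all genes tested and an adjusted p under 0.05. All adjusted p-values come from this fit or, where named, from the fit with the replicate block, quantile normalization or voom on recovered reads. Fold changes on this scale understate the change of low genes. The fit was checked on simulated data that had no effect of the replicate number and larger changes than the falls called against control. The check therefore cannot say how far those falls can be relied on. Replicate numbers were taken as pairing the libraries from the values: deviations from group means correlated at 0.192 to 0.711 in 9 same-numbered pairs and at -0.688 to 0.394 in 18 others. No replicates were alike within sampling noise (chi-square per gene 5.04 to 39.6). Promoter windows came from RefSeq, and gene positions from GENCODE annotation of GRCm38.

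The 45 genes, the further lists and the tests were chosen with earlier results of these data known. Any of the 45 could be named; of the further lists, at most the 5 rises and 5 falls with the largest log2 fold change in each comparison were.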

Additional observations from a re-analysis of the deposited data

How the results depend on the processing

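Counts of the 45 genes that moved by over 1.5 times were these. For double KO against control, rises were 0 and became 4 with quantile normalization, 2 with the replicate block, 1 with voom on recovered reads and 2 without the 3 libraries numbered 2. Falls were 13 and became 8 with no filter on low values, 30 with the replicate block and 27 without the libraries numbered 2. For Taz KO against control, rises were 0 and became 2, 7 and 3 with quantile normalization, the replicate block and the libraries numbered 2 left out. For double KO against Taz KO, falls were 13 and became 4 when only the 6 libraries of both groups were fitted, 34 with the replicate block and 30 without the libraries numbered 2. Fits without 1 library gave 2 to 17 falls and 0 to 2 rises against control, 2 to 22 falls and 0 rises against Taz KO, and 0 of either in Taz KO against control. Over all tested genes these fits gave 725 to 1891 falls and 780 to 1677 rises in double KO against control. They gave 237 to 1552 falls and 245 to 1096 rises against Taz KO, and 10 to 100 falls and 1 to 130 rises in Taz KO against control. Among the 45 genes the replicate block changed no other call than those printed. Pseudocounts of 0.1 and 1 and a mean FPKM of at least 5 kept each count of the 45 within 1.5 times. No log2 fold change with an adjusted p under 0.05 without the block changed sign in that comparison under any setting run. Of the falls called with the block and not without it, quantile normalization turned the sign of Mcm3 and Mcm6 against control (0.09 and 0.07) and of Mcm2 and Mcm3 against Taz KO (0.0036 and 0.07). The causes were not tested. edgeR and DESeq2 on recovered reads had been planned and were not run, since the deposited unit is FPKM; voom called 1675 rises and 1581 falls among all tested genes in double KO against control. Low read counts limit what can be seen for Fen1 (143 to 232 recovered reads in a library), Ccne2 (329 to 742) and Gins3 (359 to 669), and reads give counting error only.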
